A study of Mus musculus with 96 samples.

Results

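ThPOK, the product of Zbtb7b, belongs to the BTB zinc finger family of transcription factors, whose genes in the mouse mostly carry Zbtb symbols. Its relatives were followed here in bone marrow cells in which Zbtb7b itself is knocked out. Members were all genes of the deposited expression table with a Zbtb symbol followed by a number, together with Bcl6 and Hic1, which are family members under older names. The rule found 43 of the 23955 genes in the table. It takes names and not structures, so it also holds Zbtb8os, which encodes archease, a cofactor of tRNA ligation without a BTB domain that is named for its neighbour Zbtb8a.

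The data are 96 single-cell transcriptomes from hindlimb bone marrow of C57BL/6 mice with the genotype ThPOK-/-, which all cells share. Cells carrying CD117, the receptor Kit, were enriched on beads, sorted as granulocyte-monocyte progenitors (GMP, the bone marrow precursors of neutrophils and monocytes), and lysed on a Fluidigm C1 chip. The cells are titled ThPOK-/- modified GMP. No label names an animal, and the 96 cells therefore stand for 1 sample. The authors gave 26 cells the state Multi-Lin-1, 31 the state IG2 and 12 the state proNeu-1, and 27 cells have no state. The cells' names also carry the number 078 or 079, with 48 cells each and a meaning that is not given. Wild-type cells were not analysed here, so the values show which paralogs were present in the knockout and not what the knockout changed. With 1 sample there was no replicate, no test was made, and every interval or SD below describes these cells alone.

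BTB zinc finger proteins pair through the BTB domain at one end and bind DNA through zinc fingers at the other. The BTB domain also recruits corepressors such as NCOR1 and HDAC3, or the ubiquitin ligase scaffold CUL3, and most members are known as repressors. The family is known in blood for fixing lineage choices: ThPOK directs thymocytes to the CD4 T cell fate, its closest relative LRF (Zbtb7a) acts in the choice between B and T cells and in the silencing of fetal globin, PLZF (Zbtb16) drives natural killer T cells, and BCL6 drives germinal centre B cells.

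Detection means a level of at least 1 TPM (a transcript abundance that sums to 1e+06 in each cell and is corrected for transcript length, so that genes can be compared with each other). Cells had from 1019 to 5203 genes detected, with a median of 3353. The median was 2950 in Multi-Lin-1, 3940 in IG2, 4127.5 in proNeu-1 and 2613 in cells with no state. Reads per cell are not given, and a gene at 0 is described as listed at 0, since Tbp, which every cell uses, was detected in only 31.2% of cells. The label GMP was checked on genes of GMP and of primary granules. Of the 9 in the table, 8 were detected in at least 50% of cells, all but Cebpa (20.8%). The summed level of the 9 had a median of 1882 TPM in Multi-Lin-1 (range 26.5 to 13372) and 38958 in IG2 (10065 to 71340). It was 72808 in proNeu-1 (47929 to 93779) and 1563 in cells with no state (3.26 to 16317). Of 6 T and NK cell genes in the table, Nkg7 was detected in 96.9% of cells, Cd3d in 8 cells and Lck in 5, while Cd3e, Cd3g and Klrb1c stayed under 1 TPM in every cell. Of 8 B lymphoid genes, Cd79b was detected in 25 cells, Vpreb1 in 4 and Igll1 in 2, and the other 5, among them Cd79a, Ms4a1, Pax5 and Ebf1, in none. Mast cell and basophil genes were common as well: 4 of a list of 8 passed 50% of cells. Hdc was at 65.6%, Gata2 at 63.5%, Cpa3 at 59.4% and Mcpt8 at 53.1%, while Fcer1a was in 5 cells and Cma1 in none. Of 8 erythroid genes, only Car2 (64.6%) passed 50%, and Gata1 was at 36.5%. Gata2 was seen in 96.2% of Multi-Lin-1 and 35.5% of IG2 cells, and Cpa3 in 80.8% and 58.1%. Hdc and Mcpt8 went the other way, Hdc with 42.3% and 87.1% and Mcpt8 with 46.2% and 58.1%. A GMP identity of every cell was therefore not established.

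Most members were detected in few cells. Of the 43, 40 were detected in at least 1 cell, 17 in at least 10% of cells (39.5%), 10 in at least 20% and only Zbtb7a in at least 50%. Over all genes of the table, 33.6% were detected in at least 10% of cells and 9.48% in at least 50%. For 361 genes with a Zfp symbol, another large set of zinc finger genes, the corresponding shares were 39.3% and 5.26%. The median member was detected in 6.25% of cells, the median Zfp gene in 7.29% and the median gene in 1.04%. Hic1, Zbtb46 and Zbtb7c, 6.98% of the members, were detected in no cell, against 14.7% of Zfp genes and 48.2% of all genes.

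**Figure D1:**
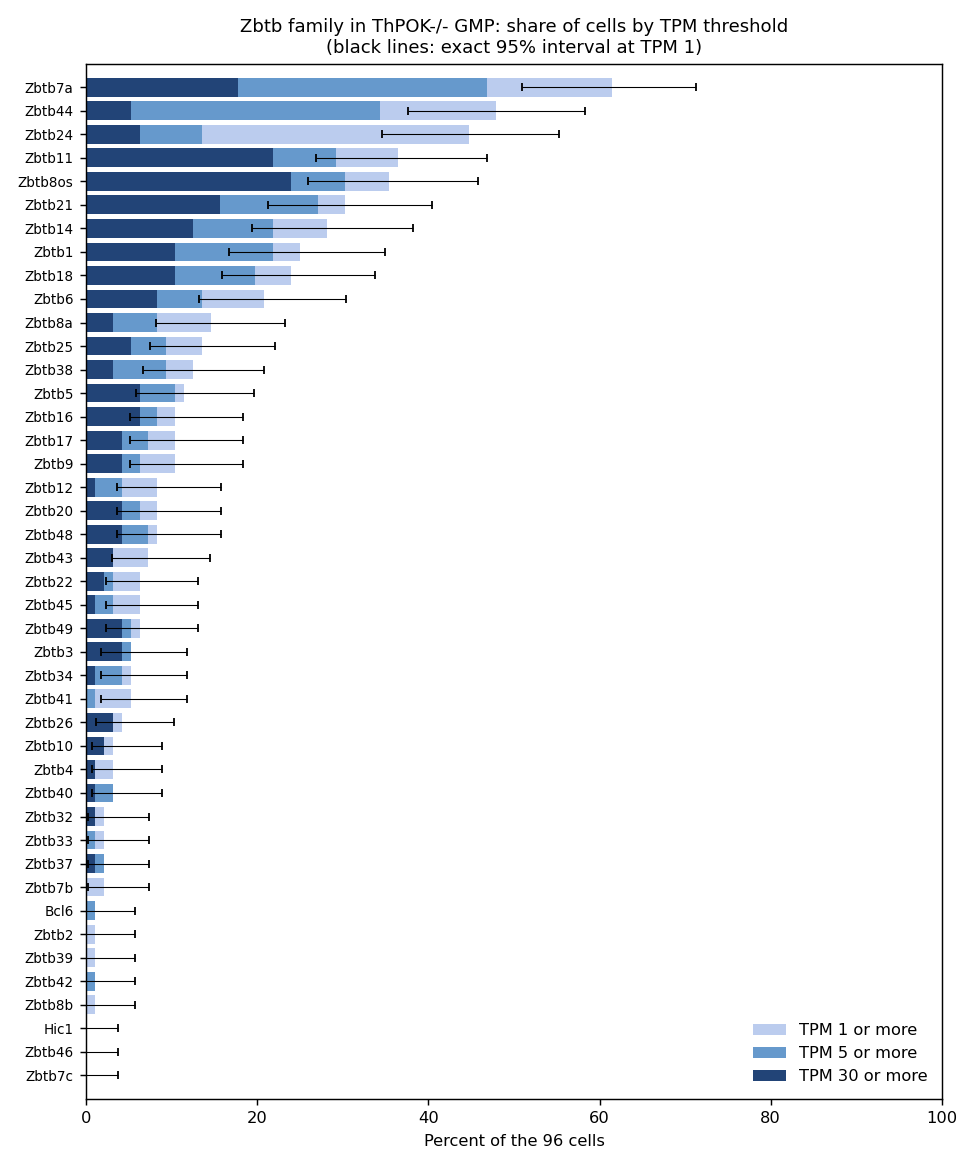
Percent of the 96 ThPOK-/- cells (horizontal axis) in which each of the 43 members (rows) reached 1, 5 or 30 TPM, from light to dark, with the exact 95% interval at 1 TPM as a black line. Zbtb7a is highest at 61.5%, Zbtb24 loses most of its cells between 1 and 5 TPM, and Zbtb7b lies near the bottom.

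In the Zbtb7 subfamily, Zbtb7a was the member seen in the most cells, Zbtb7b was at trace level and Zbtb7c was listed at 0 throughout. Zbtb7a was detected in 59 of 96 cells, or 61.5% (Clopper-Pearson 95% interval 51 to 71.2%, counting error only). It reached 5 TPM in 45 cells and 30 TPM in 17. Where detected, its median was 16.9 TPM. On the log2(TPM + 1) scale the lowest, median and highest Zbtb7a levels were 0, 2.10 and 6.99 in Multi-Lin-1, 0, 3.37 and 5.83 in IG2, 0, 2.45 and 5.72 in proNeu-1, and 0, 1.60 and 10.08 in cells with no state. All 4 groups thus held cells at 0 and cells well above the median of the others, and their ranges overlapped.

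The share of cells with Zbtb7a was 57.7% in Multi-Lin-1 (15 of 26, interval 36.9 to 76.6%), 67.7% in IG2 (21 of 31, 48.6 to 83.3%), 66.7% in proNeu-1 (8 of 12, 34.9 to 90.1%) and 55.6% with no state (15 of 27, 35.3 to 74.5%). These intervals overlap. Mean log2 levels were 2.18 ± 2.09, 2.77 ± 2.12, 2.64 ± 2.33 and 2.73 ± 3.10 in the same order (SD over cells). The share was 62.5% in the cells numbered 078 and 60.4% in those numbered 079. The highest Zbtb7a value, 1085 TPM, came from the cell with the fewest genes, 1019, which has no state. Without it the mean over cells went from 29.95 to 18.9 TPM.

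Zbtb7b, the knocked-out gene, reached 1 TPM in 2 of 96 cells (2.08%, interval 0.253 to 7.32%). Its values there were 2.12 and 1.04 TPM, both in Multi-Lin-1 cells numbered 079, and 5 other cells held values from 0.16 to 0.31 TPM. The cell with the highest Zbtb7b value had Zbtb7a at 16.9 TPM, while the other of the pair had Zbtb7a at 0. Zbtb7b made up 0.0121% of the family's summed TPM over all cells, and Zbtb7a 8.35%. The labels do not say which part of Zbtb7b was deleted, so a transcript from the remaining exons cannot be told apart from an intact one. The gene also shares 116 exonic bases with Gm15417 on the opposite strand, and use of strand in counting is not stated. Zbtb7c was at 0 throughout, and the limit on the share of cells in which it would be detected, taken as 3 cells of 96 for a count of 0, is 3.12%.

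Zbtb7a (ENSMUSG00000035011) lies on the plus strand at chr10:81135220-81152995 of GRCm38 and Zbtb7b (ENSMUSG00000028042) on the minus strand at chr3:89377644-89394776. Promoter windows, from 250 bases before to 50 after a RefSeq start site (GRCm38.p6), were matched for 38 members, with 53 windows in all. The windows of the most widely detected member, of the knocked-out gene and of a member listed at 0 in every cell are shown to set side by side what differs in base composition. Capitals mark the GC box (GGGCGG, or CCGCCC on the other strand) and the CCAAT box (CCAAT or ATTGG), counted on both strands and with overlaps. In the Zbtb7b window a CCAAT box runs into a GC box.
Zbtb7a, chr10:81136021-81136320, plus strand: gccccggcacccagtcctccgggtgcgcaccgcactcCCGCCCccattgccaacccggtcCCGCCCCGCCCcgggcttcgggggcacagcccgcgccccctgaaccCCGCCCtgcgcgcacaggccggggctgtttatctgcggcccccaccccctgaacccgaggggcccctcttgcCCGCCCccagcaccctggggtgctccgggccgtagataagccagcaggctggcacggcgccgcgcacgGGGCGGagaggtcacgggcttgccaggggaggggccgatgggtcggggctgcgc
Zbtb7b, chr3:89393329-89393628, minus strand: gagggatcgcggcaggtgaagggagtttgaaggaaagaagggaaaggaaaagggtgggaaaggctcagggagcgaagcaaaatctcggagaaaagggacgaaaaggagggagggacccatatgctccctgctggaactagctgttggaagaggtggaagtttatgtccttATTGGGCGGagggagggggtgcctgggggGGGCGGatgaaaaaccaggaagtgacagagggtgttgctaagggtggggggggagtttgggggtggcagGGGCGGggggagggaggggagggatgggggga
Zbtb46, chr2:181424339-181424638, minus strand: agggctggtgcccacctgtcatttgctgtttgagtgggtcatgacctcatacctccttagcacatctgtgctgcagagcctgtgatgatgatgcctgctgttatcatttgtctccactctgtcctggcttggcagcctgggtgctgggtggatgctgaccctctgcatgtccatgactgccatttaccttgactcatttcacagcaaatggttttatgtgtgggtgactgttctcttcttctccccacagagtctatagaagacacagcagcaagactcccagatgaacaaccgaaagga
The Zbtb7a window held 31 CpG dinucleotides and 6 GC boxes. That of Zbtb7b held 8 CpG, 3 GC boxes and 1 CCAAT box, and a second RefSeq window of Zbtb7b held 7 CpG and 1 GC box. The Zbtb46 window held 1 CpG and neither box, whereas Hic1, also listed at 0 in every cell, had windows with 20 and 29 CpG and 3 and 2 GC boxes. The Zbtb46 window lies well inside the gene as annotated (chr2:181387762-181459426, minus strand). It therefore does not show the gene's outermost start, for which no window was matched.

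Across the family the promoters were richer in CpG than promoters at large. The median was 25 CpG per window over the 53 member windows and 7 over all 32851 windows. A GC box was present in 67.9% of member windows and 35.7% of all windows, a CCAAT box in 30.2% and 37.4%, a TATA box (TATAAA or TTTATA) in 11.3% and 13.6%, and the RUNX motif TGTGGT (or ACCACA) in 20.8% and 16.8%. Median CpG content differed little between windows of members detected often and seldom. It was 28 over the 16 windows of the 10 members in at least 20% of cells and 24 over the 37 windows of the other 28 members. A gene with several windows counts several times, such as Zbtb18 with 51, 1, 1, 2 and 3 CpG. A Bcl6 window had 31 CpG although Bcl6 was detected in 1 cell. A match to a motif is a description of the letters and not a binding site.

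Members known for blood lineage roles, beside Zbtb7a and Zbtb7b, ranged from 43 cells for Zbtb24 to none for Zbtb46. Zbtb24, whose loss causes an immunodeficiency with centromere instability, was detected in 43 cells (44.8%, interval 34.6 to 55.3%). Its levels were low, with a median of 3.27 TPM where detected, and only 13 cells reached 5 TPM. Zbtb1, needed for lymphoid development, was detected in 24 cells (25%, 16.7 to 34.9%) and ran from 1.22 to 1213 TPM in them. The highest of these cells, in Multi-Lin-1, held 43.6% of the gene's summed TPM.

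Zbtb16 was detected in 10 cells at 2.93 to 465 TPM, of which 3 were Multi-Lin-1, 5 IG2 and 2 without a state. None of the 12 proNeu-1 cells had it, and the same limit is 25% there (3 of 12). Zbtb17, the Myc partner Miz-1, was also detected in 10 cells, at 1.63 to 438 TPM. Of these, 5 had no state, where its share was 18.5% (interval 6.30 to 38.1%), against 7.69% in Multi-Lin-1, 6.45% in IG2 and 8.33% in proNeu-1. The intervals overlap. Zbtb20, known from liver and plasma cells, was detected in 8 cells at 1.90 to 78.9 TPM, again in no proNeu-1 cell.

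Zbtb32, a repressor induced in activated lymphocytes, was detected in 2 cells, at 129 TPM in a cell with no state and at 4.33 TPM in an IG2 cell. Bcl6 was detected in 1 cell with no state, at 17.9 TPM. Zbtb46, a marker of classical dendritic cells, and Hic1, a tumour suppressor, were listed at 0 in all 96 cells, with the same limit of 3.12% for each.

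Among the methylated DNA binders, Zbtb38 was detected in 12 cells (12.5%), Zbtb4 in 3 and Zbtb33 (Kaiso) in 2, at 13.6 and 1.58 TPM. Zbtb48 (TZAP, a telomere length regulator) was detected in 8 cells and Zbtb10 in 3.

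The other widely detected members differed in how their levels were spread. Zbtb44 was detected in 46 cells (47.9%, interval 37.6 to 58.4%), with a median of 8.96 TPM where detected and a highest value of 90.3 TPM, the lowest maximum among the 10 members in at least 20% of cells. Zbtb11, which neutrophil development in zebrafish requires, was detected in 35 cells (36.5%, 26.9 to 46.9%), with a median of 48.6 TPM in them. Zbtb8os was detected in 34 cells (35.4%, 25.9 to 45.8%) and listed at exactly 0 in all others, with a median of 103 TPM where detected. At 30 TPM the order of the members was another one, with Zbtb8os in 23 cells, Zbtb11 in 21, Zbtb7a in 17 and Zbtb21 in 15, against 5 for Zbtb44 and 6 for Zbtb24.

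Zbtb21 was detected in 29 cells (30.2%, interval 21.3 to 40.4%), Zbtb14 in 27 (28.1%, 19.4 to 38.2%), Zbtb18, a neuronal repressor, in 23 (24%, 15.8 to 33.7%) and Zbtb6 in 20 (20.8%, 13.2 to 30.3%). Neighbours in this order of shares, from Zbtb7a down to Zbtb6, have intervals that overlap. Zbtb6 reached 2424 TPM in the cell with 1019 genes that also had the highest Zbtb7a value, and that cell held 76.8% of the gene's summed TPM. Of the remaining members, Zbtb8a, Zbtb25, Zbtb5 and Zbtb9 were detected in 10 to 14 cells. Zbtb12, Zbtb43, Zbtb22, Zbtb45, Zbtb49, Zbtb3, Zbtb34, Zbtb41, Zbtb26, Zbtb40, Zbtb37, Zbtb2, Zbtb39, Zbtb42 and Zbtb8b were detected in 1 to 8. Few cells did not mean low values: Zbtb49 had a median of 119 TPM in its 6 cells and Zbtb3 of 162 TPM in its 5.

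A cell had a median of 5 members detected (range 0 to 11, mean 5.31 ± 2.42 SD over 96 cells), and 2 cells had none. The median was 5 in Multi-Lin-1, 7 in IG2, 7 in proNeu-1 and 4 in cells with no state. Cells with more genes detected also had more members (Spearman's rho 0.593 over 96 cells, as a description), and per 1000 genes detected the medians lay closer together, at 1.53, 1.61, 1.72 and 1.71. The family's summed level had a median of 282 TPM (range 0.51 to 3586). Zbtb8os, which has no BTB domain, made up 15.3% of the sum over all cells, Zbtb6 9.17%, Zbtb7a 8.35%, Zbtb1 8.09% and Zbtb11 7.99%. Without the cell in which each was highest, the shares were 13.6% for Zbtb8os, 2.38% for Zbtb6, 5.81% for Zbtb7a, 4.78% for Zbtb1 and 6.99% for Zbtb11.

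**Figure D2:**
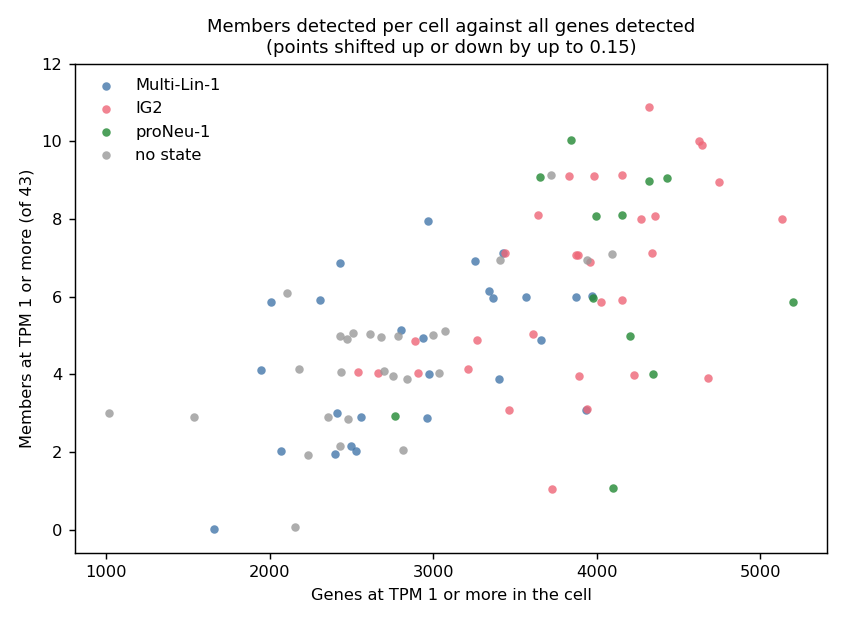
Members detected in a cell (vertical axis, of 43) against all genes detected in it (horizontal axis), each point 1 of 96 cells, coloured by the authors' state. Members range from 0 to 11 and are more in cells with more genes, where most IG2 and proNeu-1 cells lie.

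No member was detected in all cells. In the 59 cells with Zbtb7a, a median of 5 other members was detected (range 1 to 10), and in the 37 cells without it a median of 4 (0 to 9). Genes detected had a median of 3428 in the former and 2961 in the latter. Of the 3 most widely detected members, Zbtb7a, Zbtb44 and Zbtb24, 9 cells had none, 39 had 1, 35 had 2 and 13 had all 3. For the pairs among them, the product of the separate shares gives near counts. Zbtb7a and Zbtb24 were together in 28 cells against 26.4, and Zbtb7a and Zbtb44 in 26 against 28.3. Zbtb44 and Zbtb24 were together in 20 cells against 20.6. Over the 45 pairs of the 10 members in at least 20% of cells, Spearman's rho of levels across the 96 cells ran from -0.15 to 0.24 with a median of 0.06, and 0 pairs exceeded 0.3. These are weak correlations in sparse data that share the cells' depth. With genes detected, rho ran from -0.02 for Zbtb6 and 0.01 for Zbtb44 to 0.38 for Zbtb18 and 0.41 for Zbtb8os.

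Between the states, comparisons were made on mean log2(TPM + 1) for the 8044 genes detected in at least 10% of cells, of which 17 are members. A difference of 1 or more was counted, and all differences are means of the first group minus the second. From Multi-Lin-1 to IG2, 4 of the 17 members were higher by 1 or more and 0 were lower. Zbtb8os, which has no BTB domain, is among the 4. Over all 8044 genes 33.6% differed by 1 or more, 31.1% upward and 2.54% downward. The median difference was 0.53 over all genes and -0.01 over the 17 members. By a second rule, a share of cells that differs by at least 20 percentage points, 3 members (Zbtb24, Zbtb8os and Zbtb21) differed, all higher in IG2, against 29.7% of all genes, 28% higher and 1.63% lower. IG2 cells also had more genes detected, 3940 against 2950 in the median. The part of this in the differences was not tested beyond a comparison in the 69 cells with 2500 to 4500 genes. Within that range the states were not matched for genes detected, and IG2 cells still had more in the median than Multi-Lin-1 cells.

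Zbtb21 had the largest of these differences. The lowest, median and highest log2 levels were 0, 0 and 5.93 in Multi-Lin-1 and 0, 1.84 and 6.01 in IG2. The ranges overlap, but 16 of 31 IG2 cells (51.6%, interval 33.1 to 69.8%) had the gene against 3 of 26 Multi-Lin-1 cells (11.5%, 2.45 to 30.2%). The mean was 2.50 ± 2.52 in IG2 and 0.39 ± 1.22 in Multi-Lin-1, a difference of 2.11. It was 1.59 in the cells numbered 078, 2.57 in those numbered 079 and 1.91 in cells with 2500 to 4500 genes. In proNeu-1 the mean was 1.33 ± 1.99, from 4 of 12 cells, all numbered 079. Zbtb21 (chr16:97943357-97962622, minus strand) shares exonic bases with C2cd2 on the same strand.

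Zbtb8os was detected in 5 of 26 Multi-Lin-1 cells (19.2%), 15 of 31 IG2 cells (48.4%), 8 of 12 proNeu-1 cells (66.7%) and 6 of 27 cells with no state (22.2%). Its mean was 1.23 ± 2.91 in Multi-Lin-1 and 3.09 ± 3.61 in IG2, a difference of 1.85. The difference was 3.93 in the cells numbered 078 and 0.01 in those numbered 079, where 4 of 15 Multi-Lin-1 and 5 of 15 IG2 cells had the gene. Zbtb11 was higher in IG2 by 1.26, from 1.31 ± 2.45 to 2.57 ± 2.85, and by 1.02 and 1.53 in the cells numbered 078 and 079. Zbtb11 shares 489 exonic bases with Zbtb11os1 and 238 with Pcnp on the opposite strand. It also shares exonic bases with Gm28037 on the same strand. Zbtb6 was higher by 1.127, from 0.38 ± 0.82 to 1.505 ± 2.60, and by 1.31 and 0.87. In cells with 2500 to 4500 genes the differences were 1.35 for Zbtb8os, 1.40 for Zbtb11 and 1.09 for Zbtb6.

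Zbtb24 came just under the limit, with a mean of 0.80 ± 1.12 in Multi-Lin-1 and 1.79 ± 1.93 in IG2, a difference of 0.99. The difference was 1.47 in the cells numbered 078, 0.52 in those numbered 079 and 0.57 in cells with 2500 to 4500 genes. Its share of cells differed more, at 30.8% (8 of 26, interval 14.3 to 51.8%) against 64.5% (20 of 31, 45.4 to 80.8%), and was 25% in proNeu-1 and 44.4% in cells with no state. Zbtb44 had similar means in all groups, 1.72 ± 1.82 in Multi-Lin-1, 1.62 ± 1.71 in IG2, 1.56 ± 1.80 in proNeu-1 and 1.57 ± 1.92 with no state. Among members in fewer cells, Zbtb41 was detected in 4 IG2 cells of its 5.

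**Figure D3:**
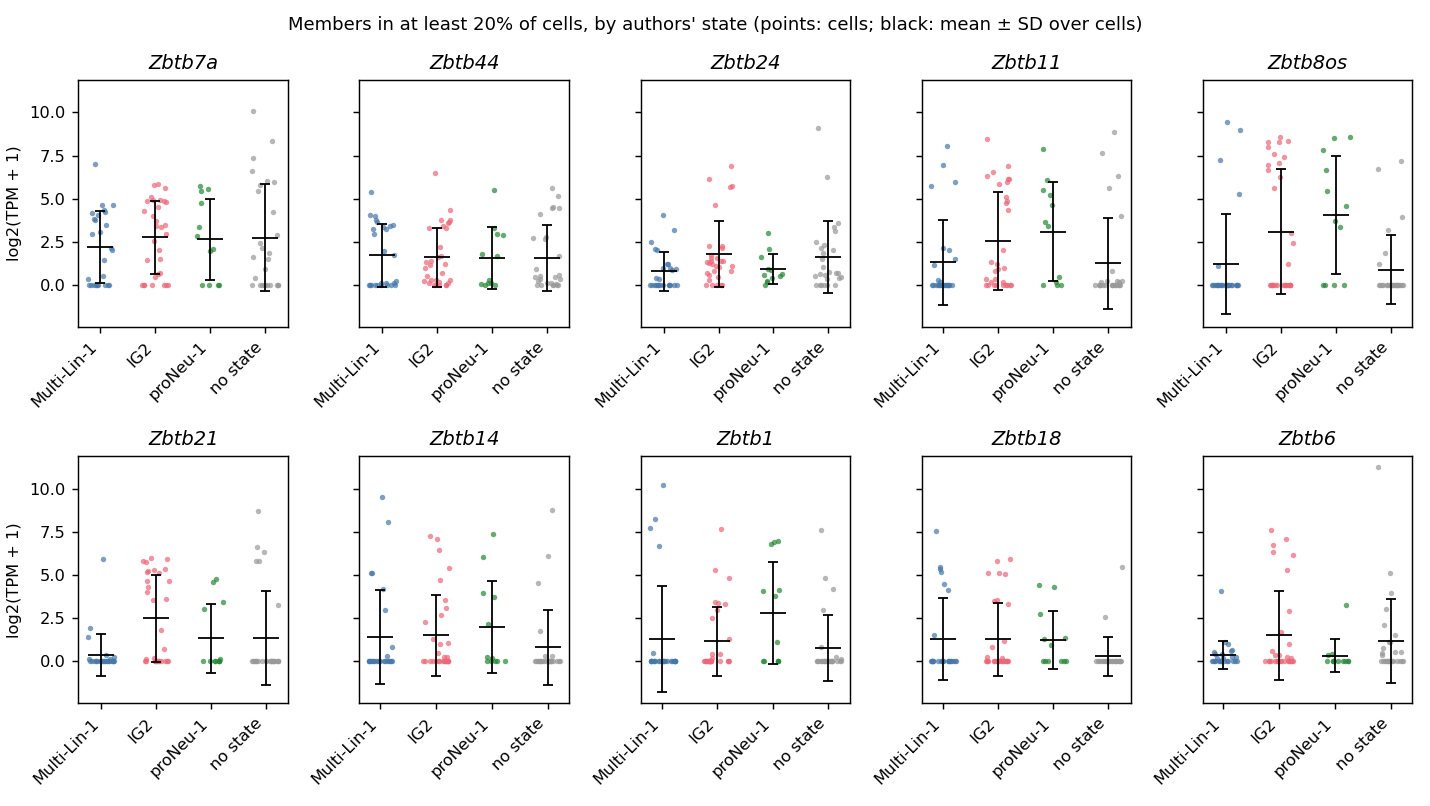
Level of each of the 10 members in at least 20% of cells, as log2(TPM + 1) on the vertical axis, in the cells of each state (points), with mean and SD over cells in black. Every panel has cells at or near 0 in all states, and Zbtb21 reached 1 TPM in 3 of 26 Multi-Lin-1 cells.

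Against IG2, proNeu-1 cells differed by 1 or more in 4 of the 17 members, 2 higher and 2 lower. Over all 8044 genes 23.8% differed by that much, 13.6% higher and 10.2% lower, and the median difference was 0.02 over all genes and -0.03 over the members. By a share difference of 20 points, Zbtb1 was higher and Zbtb24 lower, against 18.6% of all genes, 11.8% higher and 6.79% lower. Zbtb1 was higher by 1.66, with a mean of 1.15 ± 2.01 in IG2 and 2.82 ± 2.96 in proNeu-1. Its lowest, median and highest log2 levels were 0, 0 and 7.68 in IG2 and 0, 2.46 and 6.97 in proNeu-1, and it was detected in 9 of 31 (29%) and 7 of 12 cells (58.3%). The difference was 2.92 in the cells numbered 078 and 0.41 in those numbered 079.

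Zbtb21 was lower in proNeu-1 by a mean of -1.17 (-2.23 in the cells numbered 078 and -0.12 in those numbered 079), and Zbtb6 by -1.16 (-1.86 and -0.45), with Zbtb6 detected in 1 of 12 proNeu-1 cells against 8 of 31 IG2 cells. Zbtb25 was higher by 1.06, which rests on 2 proNeu-1 cells at 319 TPM, both numbered 078. In the cells numbered 079 the difference was -0.39. The proNeu-1 group has 6 cells of each number. Zbtb8os was higher by 0.97, by 0.99 and 1.02 within the numbers and by 2.03 in cells with 2500 to 4500 genes, without reaching the limit over all cells.

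Cells with no state differed from Multi-Lin-1 by 1 or more in 1 member, against 17.2% of the 8044 genes, 5.21% higher and 12% lower. The median difference was -0.13 over all genes and -0.16 over the members. By a share difference of 20 points 0 members differed, against 9.82% of all genes, 2.54% higher and 7.28% lower. The 1 member was Zbtb18, with a mean of 1.30 ± 2.36 in Multi-Lin-1 and 0.30 ± 1.14 in cells with no state, a difference of -1.002. It was detected in 7 of 26 (26.9%, interval 11.6 to 47.8%) and 2 of 27 cells (7.41%, 0.910 to 24.3%). The difference was -1.61 in the cells numbered 078 and -0.68 in those numbered 079. Cells with no state also had higher summed erythroid markers (median 809 TPM, range 0 to 17054, against 440, 0.33 to 5676) and mast cell and basophil markers (median 2781 TPM, 0.58 to 78857, against 996, 0 to 9026), whose part in the Zbtb18 difference was not tested. Of the 9 member differences counted in the 3 comparisons, all but that of Zbtb25 had the same sign in the cells of both numbers. All 9 were 1 or more in the cells numbered 078 and 2 of 9 in those numbered 079. All 9 were also 1 or more in cells with 2500 to 4500 genes, a range in which the states were not matched for genes detected.

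**Figure D4:**
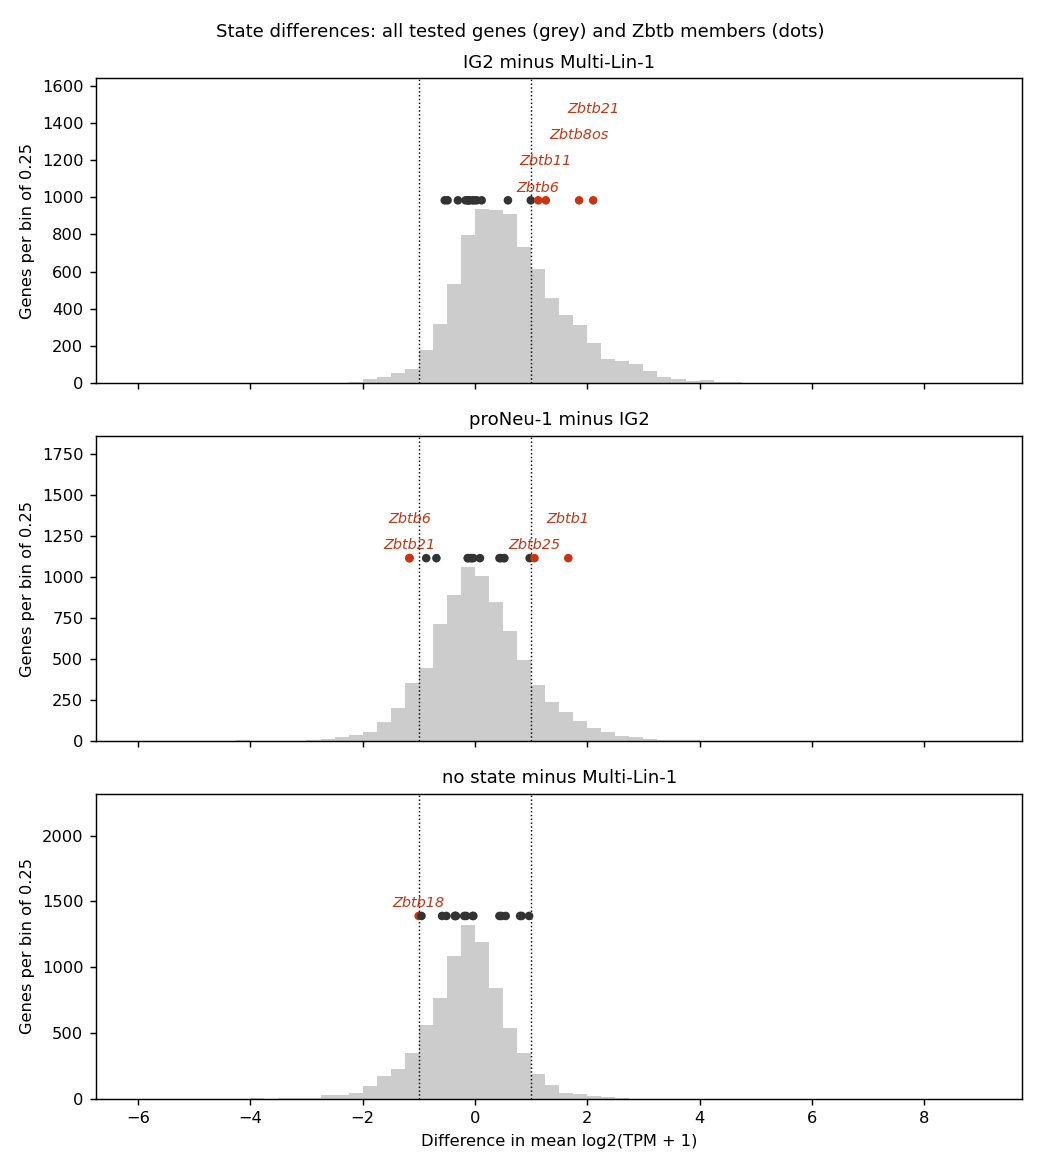
Difference in mean log2(TPM + 1) (horizontal axis) in 3 comparisons, with the number of all 8044 genes per bin of 0.25 in grey (vertical axis) and the 17 members as dots, in red with names where the difference was 1 or more (dotted lines). The members lie within the spread of all genes in each comparison.

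Further family members that do not carry a Zbtb symbol were followed as a separate list, which held 5 genes of the table. The other symbols searched were not in the table and include older names of Zbtb members already counted. Patz1 (MAZR, a repressor of ThPOK in T cells) was detected in 39 cells (40.6%, interval 30.7 to 51.1%), Mynn in 18.8%, Gzf1 in 17.7%, Hic2 in 3.12% and Bcl6b in none. Patz1 levels were 1.503 ± 2.50 in Multi-Lin-1, 2.36 ± 2.90 in IG2, 2.52 ± 2.77 in proNeu-1 and 2.03 ± 3.30 with no state. None of the 3 that entered the state comparisons differed by 1 or more in any of them. Over all genes the shares were 33.6%, 23.8% and 17.2%, and with 3 genes nothing particular to the list is read from it.

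The partners through which BTB zinc finger proteins repress were more widely detected than the family. All 20 genes of this list were in the table, 17 in at least 10% of cells and 4 in at least 50%, with a median share of 28.1%. Ncor1, the corepressor scaffold, was detected in 93.8% of cells, Rbx1, the ring subunit of CUL3 ligases, in 89.6%, the deacetylase gene Hdac1 in 69.8% and Gps2, a subunit of the NCOR complex, in 57.3%. In IG2 against Multi-Lin-1, 2 of 17 (against 33.6% of all genes) differed by 1 or more, Rbx1 higher by 1.43 and Hdac2 by 1.197, with a list median of 0.49 against 0.53 over all genes. In proNeu-1 against IG2, 4 of 17 differed (23.8% of all genes): Hdac1 (1.66) and Cul3 (1.64) were higher and Hdac2 (-1.48) and Kdm2b (-1.09), a histone demethylase of the BCOR complex, lower, with a list median of -0.21 against 0.02. In cells with no state against Multi-Lin-1, 1 of 17 differed (17.2% of all genes), Hdac1 (-1.49), with a list median of -0.17 against -0.13.

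Of 12 genes that act with ThPOK in T cells, 5 were detected in at least 10% of cells and 3 in at least 50%, against 33.6% and 9.48% of all genes. Myb was detected in 96.9% of cells, Runx3, which opposes ThPOK in the CD8 lineage, in 58.3%, Runx1 in 54.2% and Cbfb, the partner of both RUNX proteins, in 44.8%. Gata3, an activator of ThPOK in thymocytes, was detected in 7 cells, Cd4 and Cd8a in 2 each, and Tox, Lef1 and Bcl11b in none. Of the 5 compared between states, Myb was higher in IG2 than in Multi-Lin-1 by 1.33, Runx1 lower in proNeu-1 than in IG2 (-1.41) and Runx3 lower in cells with no state than in Multi-Lin-1 (-1.17). That is 1 of 5 in each comparison, against 33.6%, 23.8% and 17.2% of all genes, and nothing particular to the list is read from it. Runx3 had its highest mean in Multi-Lin-1, 3.70 ± 3.03, against 3.02 ± 2.86 in IG2, 2.07 ± 2.91 in proNeu-1 and 2.53 ± 2.79 with no state, the SDs being larger than the differences.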

How the data were processed

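The members and gene lists were chosen with earlier results of these data known. The deposited expression table is on a log2 scale, and after 2 was raised to each value and 1 subtracted every cell summed to 1e+06, so the values were taken as log2(TPM + 1). The deposited splicing table gives fractions between 0 and 1 (percent spliced in, PSI). The authors' cell states are names, and how they were made is not given. If they rest on the same expression values, differences between states are partly built into the labels, which was not tested. The submitters' processing notes name mm9, mm10, Bowtie2, RSEM and STAR, with roles not given in the sources used here. Data for cells that no label maps (1142 splicing columns and 511 state entries) were not used here.

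TPM keeps no depth and PSI came without read counts, so depth is unknown, and genes at 1 TPM or more stand in for it. Intervals are exact (Clopper-Pearson, 95%) and cover counting error only. Reads are PCR copies without molecular identifiers. Cells were not replicates, so no p-value was computed. Doublets were not called, for lack of counts. Gene positions came from GENCODE M21 (GRCm38), in which all 43 members were matched, and 16 share exonic bases with a gene on the opposite strand. Protein features were not analysed here. Scripts used pandas 2.3.3, SciPy 1.17.1, NumPy 2.4.6 and matplotlib 3.10.9 under Python 3.11.15.

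Members named by state were Zbtb7a, Zbtb7b, Zbtb7c, Bcl6, Hic1, Zbtb16, Zbtb17, Zbtb20, Zbtb32, Zbtb33 and Zbtb46, all others in at least 20% of cells, and those that differed by 1 or more with the same sign in both label numbers. Zbtb25, Zbtb38, Zbtb41, Zbtb48, Zbtb49 and Zbtb3, and the genes of other lists that differed between states, were chosen after their values were seen. Alternatives were detection at 5 or 30 TPM, the cells of 1 label number, cells with 2500 to 4500 genes, a pseudocount of 0.1, a share difference of 20 points and no filter on detection. Leaving out a member's highest cell from the summed levels was added after seeing the data.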

Additional observations from a re-analysis of the deposited data

How the results depend on the processing

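Detection at 5 TPM left 11 members in at least 10% of cells and at 30 TPM 7, with 0 in at least 50% at either, where 3 members passed in the cells numbered 079 and 2 in cells with 2500 to 4500 genes. The median number of members per cell was 2 at 30 TPM. The share of cells with Zbtb7a was 46.9% at 5 TPM and 17.7% at 30 TPM, and that with Zbtb7b was 0% at both and 0% in the cells numbered 078. Members that differed between IG2 and Multi-Lin-1 numbered 8 in the cells numbered 078, 7 higher and 1 lower. Between proNeu-1 and IG2 they numbered 2 by a share difference of 20 points, 8 with a pseudocount of 0.1, and 2 in the cells numbered 079, of which 0 were among the 4 over all cells. Between cells with no state and Multi-Lin-1 they numbered 0 by share, 5 with a pseudocount of 0.1, 2 in the cells numbered 078, and 7 in those numbered 079, of which 0 were shared. The cause of these changes was not tested, and the cells of 1 label number leave as few as 6 in a state. Of the 9 member differences counted, 6 moved by over 1.5 times in the cells numbered 078, 5 in those numbered 079, where 2 still reached 1, and 0 in cells with 2500 to 4500 genes. That last range does not match the states for genes detected. Zbtb25 in proNeu-1 against IG2 reversed, at -0.39 in the cells numbered 079. No paired analysis was possible because the cells are 1 sample of 1 genotype and no test was made. Differences within each label number are given beside the members.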

Other observations

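The members' splicing could hardly be read in these cells. The authors' table holds 125 events of 18 members among 80855 events. Only 6 of the 125 (4.8%) had a PSI value in at least 10 cells, against 43.2% of all events, and the median event had values in 3 cells against 8 over all events. All 6 belong to Zbtb8os, which has no BTB domain. Both Zbtb7a events had a value in 0 cells although the gene was detected in 59. Zbtb20 had 39 events, none with values in more than 8 cells. Of the 500 junction ends of these events, 86.2% fell on an exon edge of GENCODE M21.

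In Zbtb8os (ENSMUSG00000057572, chr4:129335695-129354547, plus strand) nearly every cell with a value used the same junctions. The junction that skips the second exon, chr4:129336139-129341477, was at a PSI of 0 in 21 of 22 cells and at 1 in 1. An alternative end, chr4:129343173-129346804, was at 0 in all 24 cells with a value, 3 of them Multi-Lin-1, 12 IG2, 6 proNeu-1 and 3 with no state. Over all 489 values of member events, 8 lay between 0 and 1.

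Some members are neighbours in the genome, and 6 pairs lie within 100 kb. Zbtb8a and Zbtb8os overlap on opposite strands by 264 exonic bases and were detected in 14 and 34 cells, 8 of them the same. Zbtb6 and Zbtb26 overlap on the same strand and were detected in 20 and 4 cells, 0 of them the same. Zbtb1 and Zbtb25 stand on opposite strands with a gap of 663 bases and were detected in 24 and 13 cells, 3 of them the same. Reads from exonic bases shared on opposite strands cannot be told apart where strand is not used. Those from bases shared on the same strand, as in Zbtb6 and Zbtb26, cannot be told apart by strand at all.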
